A study of Mus musculus with 23 samples.

Results

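Prostaglandin synthesis, sensing and breakdown were followed through 10 genes in 5 mouse tumor models and the fibroblasts of 4 of them. The genes were Pla2g4a, Ptgs1, Ptgs2, Ptges, Ptges2, Ptges3, Ptger2, Ptger3, Ptger4 and Hpgd. They were taken by symbol from 24940 gene symbols, and 1 transcript, that with the largest mean, stood for each. The list was chosen with earlier results of these data known. Tumors grew in the flank of adult female C57BL/6 mice after injection of 500000 cells of 1 cell line a model: B16 (B16-F10 melanoma), EO771 (EO771.LMB, breast), LL2 (LL/2, lung), MC38 (colon) and Pan02 (pancreas). Fragments of whole tumors gave 3 libraries a model, 15 in all. Cancer-associated fibroblasts (CAFs), sorted as FAP+ cells of the CD45- fraction after overnight digestion, came from every model but B16, with 2 libraries a model. There was no untreated or tumor-free group, and the titles of the Pan02 tumors begin Pan01 while their cell line label says Pan02.

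Prostaglandins are short-lived lipid signals made from arachidonic acid. The cytosolic phospholipase A2 encoded by Pla2g4a frees this fatty acid from membranes, and the cyclooxygenases COX-1 (Ptgs1, present in many resting tissues) and COX-2 (Ptgs2, induced by growth factors and inflammatory cytokines) turn it into prostaglandin H2. Synthases then make prostaglandin E2, the receptors EP2, EP3 and EP4 (Ptger2, Ptger3 and Ptger4) sense it, and 15-hydroxyprostaglandin dehydrogenase (Hpgd) inactivates it. In tumors this pathway is known for effects on inflammation, vessel growth and T cell suppression.

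The promoters of the 3 synthesis genes whose levels ranged most widely among tumors are shown, since both cyclooxygenases catalyze the same step while their levels took different orders among the models. They are the 250 bases before the RefSeq start site (build GRCm38.p6, 5′ to 3′ on the gene's strand), and capitals mark letters found by the search described next.
Ptgs2 (chr1:150099781-150100030, + strand): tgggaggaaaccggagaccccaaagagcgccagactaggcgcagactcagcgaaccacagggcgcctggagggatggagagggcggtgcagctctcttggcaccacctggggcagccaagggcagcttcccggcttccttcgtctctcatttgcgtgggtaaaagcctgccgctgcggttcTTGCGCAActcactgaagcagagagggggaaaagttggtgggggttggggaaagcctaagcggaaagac
Ptgs1 (chr2:36230176-36230425, + strand): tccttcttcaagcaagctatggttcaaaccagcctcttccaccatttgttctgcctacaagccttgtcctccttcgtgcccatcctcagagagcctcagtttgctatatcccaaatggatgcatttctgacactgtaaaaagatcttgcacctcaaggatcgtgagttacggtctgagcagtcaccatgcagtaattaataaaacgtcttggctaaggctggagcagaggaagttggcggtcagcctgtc
Ptges (chr2:30903298-30903547, - strand): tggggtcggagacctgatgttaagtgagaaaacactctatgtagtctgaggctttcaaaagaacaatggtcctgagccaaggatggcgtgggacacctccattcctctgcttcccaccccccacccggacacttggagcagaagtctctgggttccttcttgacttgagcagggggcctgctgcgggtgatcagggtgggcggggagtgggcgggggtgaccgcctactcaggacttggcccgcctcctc

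The letters of 4 motifs were searched on both strands of windows from 250 bases before to 50 bases after the start sites of 32851 promoters, 11 of them for the 10 genes. The palindrome TTGCGCAA, of the kind that C/EBP factors bind, was in 0.18% of promoters and, among the 11, only in that of Ptgs2, with its first letter 69 bases before the start site. TGACG, the core of the cAMP response element, was in 20.8% of promoters and in those of Ptgs2 and Ptges3. CACGTG, an E-box, was in 7.15% of promoters and in those of Ptgs2 and Ptges2. TATAAA was in 13.6% of promoters, in that of Hpgd and in the second promoter of Pla2g4a. Positions are counted from the RefSeq start site, and where transcription starts in these samples was not measured. In Ptgs2 the reverse complement of TGACG and the E-box overlap by 2 letters just after the RefSeq start site. They are in capitals in these 22 bases, which begin at base 9 counted from 1 at that site.
Ptgs2 (chr1:150100039-150100060, + strand): cactaCGTCACGTGgagtccgc
None of the 4 motifs was in the windows of Ptgs1 or Ptges, which says only that these letters are not there.

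Sums of counts ran from 10035180 to 21946495 per tumor, and recovered totals from 9267726 to 22842057 reads per CAF library. Markers of 2 labelled cell types were looked at: the 4 melanocyte markers summed to 15700 to 20230 CPM (counts scaled to library size) in B16 tumors and to at most 23.44 CPM elsewhere, and the 8 fibroblast markers summed to 915 to 6922 RPKM (reads scaled to transcript length and library size) in CAFs. None of these 8 was higher in Pan02 CAFs, where Fap, the sorting marker, was lower (-1.31 ± 0.30 SE, adjusted p = 0.0088 by limma). Pdpn (-2.02 ± 0.40, adjusted p = 0.0047) and Thy1 (-2.54 ± 0.59, adjusted p = 0.0086) were also lower there. In MC38 CAFs Pdgfra, Dcn and Lum were lower and none was higher. Of the CAF libraries, MC38 library b stood apart, with the lowest fibroblast sum (915 RPKM against 4646 RPKM in library a) and 67.2% of its reads on genes against 81.0% to 88.1% in the others. The 5 epithelial markers summed to 832 to 1121 RPKM in Pan02 CAFs, 494 to 500.3 RPKM in EO771, 200.4 to 209 RPKM in LL2 and 1.72 to 3.73 RPKM in MC38. In EO771 CAFs only Krt8 of these 5 was higher than in the other models and the other 4 were lower, while in Pan02 CAFs 4 were higher and none lower. The 8 macrophage markers summed to 149.8 to 193 RPKM in EO771 CAFs against at most 23.9 RPKM in the others. These sums moved with the models in which several of the 10 genes differed, and their part in the results was not tested. Tumor values are given as CPM scaled by TMM and CAF values as RPKM. Genes are called at adjusted p-values under 0.05, by edgeR in tumors and limma in CAFs. Positions of genes are those of their transcripts in mm10.

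Whole tumors differed in nearly every step of the pathway. By edgeR, 9 of the 10 genes passed the test over the 5 models, as did 91.1% of the 15732 genes tested, so that the count itself is close to the background. The models differed in which of the genes were high. LL2 tumors were highest in Ptgs1, Ptgs2 and Ptges together. B16 tumors were low in all 3. EO771 tumors were high in Ptgs1 and Ptges with very little Ptgs2, MC38 tumors had the reverse balance of the cyclooxygenases, and the receptors Ptger3 and Ptger4 were highest in Pan02 tumors. In whole tumors, fewer cells of a type and less RNA per cell cannot be told apart.

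Pla2g4a (chr1:149829619-149961290, - strand), at the entry to the pathway, formed a high and a low group of models. Its level was 43.8, 56.3 and 48.4 CPM in the 3 Pan02 tumors, 46.6, 45.4 and 36.5 CPM in LL2, and 29.0, 22.3 and 30.5 CPM in MC38. It was 7.56, 10.3 and 9.38 CPM in B16 and 7.04, 8.32 and 10.7 CPM in EO771. Pan02 overlapped LL2 and B16 overlapped EO771, while MC38 lay apart from both pairs. Against the mean of the other 4 models, taken on the log2 scale here and below, Pla2g4a was higher in Pan02 (log2 fold change 1.51 ± 0.13 SE, adjusted p = 5.2e-07) and LL2 (1.25 ± 0.13, adjusted p = 6.8e-06). It was lower in EO771 (-1.64 ± 0.16, adjusted p = 2.4e-06) and B16 (-1.55 ± 0.16, adjusted p = 2.1e-06). The small rise in MC38 (0.43 ± 0.14, adjusted p = 0.019) did not pass when MC38 tumor 1 (adjusted p = 0.086) or 3 (0.16) was left out. It is relative to a mean that holds the low B16 and EO771, and MC38 lay below every Pan02 and LL2 tumor.

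Ptgs1 (chr2:36230426-36252271, + strand), which encodes COX-1, separated the models into 3 with high and 2 with low levels. LL2 tumors had 196, 169 and 166 CPM, Pan02 tumors 89.6, 131 and 191 CPM and EO771 tumors 111, 97.1 and 125 CPM. MC38 tumors had 13.2, 7.85 and 10.5 CPM and B16 tumors 4.22, 6.40 and 4.29 CPM. The 3 high models overlapped from one to the next, and the lowest of their tumors was above every MC38 and B16 tumor. The mean was 35.6-fold higher in LL2 (177 CPM ± 17.0, SD, n = 3) than in B16 (4.97 CPM ± 1.24, SD, n = 3). EdgeR placed Ptgs1 higher in LL2 (log2 fold change 2.56 ± 0.17 SE, adjusted p = 1.1e-07), Pan02 (2.10 ± 0.18, adjusted p = 3.7e-07) and EO771 (1.72 ± 0.18, adjusted p = 3.3e-06). It was lower in MC38 (-2.52 ± 0.24, adjusted p = 2e-06) and B16 (-3.87 ± 0.27, adjusted p = 3.2e-08). Of the exon bases of Ptgs1, 5.2% overlap the gene model Gm43621, and the libraries do not mark strand. The 5 epithelial markers summed to 2114 to 3344 CPM in Pan02 tumors, 1206 to 1270 CPM in EO771 and 468 to 739 CPM in LL2, against at most 61.1 CPM in MC38 and B16. Member by member, all 5 were higher in Pan02 tumors, and 2 were higher and 1 lower in LL2. In MC38 and in B16 tumors 4 were lower and none higher. In EO771 tumors Krt8 alone was higher, Krt18 and Krt19 were lower and Epcam and Cdh1 did not pass the test. The 4 platelet markers, another known site of COX-1, summed to 16.4 to 43.2 CPM in LL2 with Gp9 at 0, 26.1 to 37.8 CPM in Pan02, 14.5 to 18.9 CPM in MC38, 8.79 to 11.04 CPM in EO771 and 2.75 to 4.64 CPM in B16. The part of epithelial cells and of platelets in the Ptgs1 levels was not tested.

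Ptgs2 (chr1:150100031-150108234, + strand), which encodes COX-2, followed another order. LL2 tumors had 139, 233 and 82.6 CPM, MC38 tumors 131, 47.7 and 94.3 CPM and Pan02 tumors 26.2, 169.9 and 23.9 CPM. B16 tumors had 1.47, 4.54 and 4.74 CPM and EO771 tumors 2.28, 1.19 and 2.09 CPM, from 42.5, 14 and 24 counts. Every LL2, MC38 and Pan02 tumor was above every B16 and EO771 tumor, while LL2, MC38 and Pan02 overlapped in turn and B16 overlapped EO771. Against the other models, Ptgs2 was higher in LL2 (log2 fold change 3.36 ± 0.47 SE, adjusted p = 7.5e-05) and MC38 (2.44 ± 0.48, adjusted p = 0.00086). It was lower in EO771 (-4.54 ± 0.79, adjusted p = 0.00029) and B16 (-3.31 ± 0.71, adjusted p = 0.0011). The rise in Pan02 (2.05 ± 0.49, adjusted p = 0.0026) rested on 1 tumor: without Pan02 tumor 2 it was 0.50 ± 0.40 (adjusted p = 0.31). In that tumor the epithelial markers summed to 3344 CPM against 2114 and 2482 CPM in the other 2, and the fibroblast sum (38000 CPM) lay within their range. The 6 neutrophil markers summed to 63.3 to 142 CPM in LL2, 58.7 to 67.1 CPM in Pan02, 15.6 to 29.3 CPM in MC38, 14.03 to 16.9 CPM in EO771 and 3.93 to 8.52 CPM in B16, and their part in the Ptgs2 levels was not tested.

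The 3 prostaglandin E synthases did not move as one. Ptges (chr2:30889471-30903297, - strand) encodes the inducible microsomal enzyme that is commonly coupled to COX-2. It had 415, 747 and 459.7 CPM in LL2 tumors, 164, 120.4 and 147 CPM in EO771 and 97.0, 112 and 88.8 CPM in MC38. Pan02 tumors had 40.2, 41.6 and 35.1 CPM and B16 tumors 1.77, 1.87 and 2.69 CPM. No tumor of a model overlapped any tumor of another model in this order, and the means of LL2 and B16 differed by 256-fold. Relative to the other models averaged on the log2 scale, Ptges was higher in LL2 (log2 fold change 4.03 ± 0.14 SE, adjusted p = 4.3e-10), EO771 (1.64 ± 0.15, adjusted p = 1.1e-06) and MC38 (0.97 ± 0.16, adjusted p = 0.00017). For MC38 that average holds the very low B16, so MC38 counts as higher although it lay below every LL2 and EO771 tumor. Ptges was lower in Pan02 (-0.71 ± 0.17, adjusted p = 0.003) and B16 (-5.93 ± 0.25, adjusted p = 3e-10).

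Ptges2 and Ptges3 stayed within narrow ranges. Ptges2 (chr2:32395890-32402740, + strand), a membrane-associated synthase, ran from 27.7 CPM in a Pan02 tumor to 51.5 CPM in an EO771 tumor, and the highest and lowest model means differed by 1.65-fold. It was higher in EO771 (log2 fold change 0.54 ± 0.08 SE, adjusted p = 8.1e-05) and lower in Pan02 (-0.36 ± 0.08, adjusted p = 0.0022). Its lower level in LL2 (-0.28 ± 0.08, adjusted p = 0.016) did not pass when LL2 tumor 1 (adjusted p = 0.08) or 3 (0.077) was left out. Its higher level in MC38 (0.23 ± 0.08, adjusted p = 0.03) did not pass under 7 of the alternatives, 5 of which left out 1 tumor. Ptges3 (chr10:128058982-128077254, + strand), the cytosolic synthase also known as the Hsp90 co-chaperone p23, ran from 64.7 CPM in a Pan02 tumor to 177 CPM in an MC38 tumor. It was higher in MC38 (0.85 ± 0.08, adjusted p = 1.2e-06) and lower in Pan02 (-0.65 ± 0.08, adjusted p = 1.8e-05). A fall in B16 (-0.22 ± 0.08, adjusted p = 0.029) did not pass under 6 of the alternatives. The annotation holds a processed pseudogene of Ptges3, so its counts are uncertain where reads match both.

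**Figure D1:**
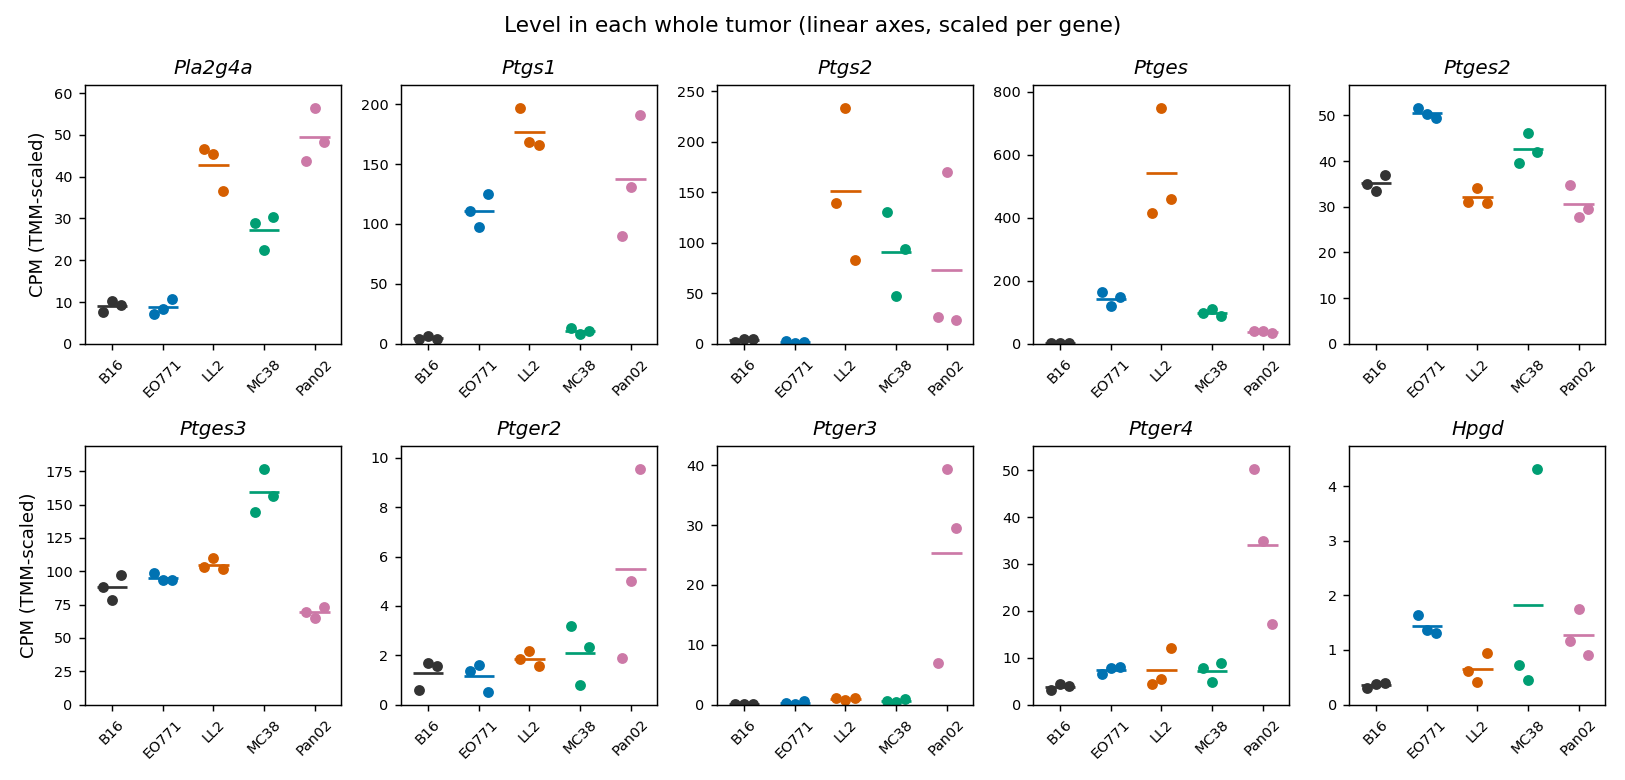
Each panel plots 1 gene in CPM (TMM-scaled, linear axis from 0) for the 3 tumors of each model as points, with the model mean as a bar. Ptgs1, Ptgs2 and Ptges peak in LL2, Ptgs2 is near 0 in EO771 (1.19 to 2.28 CPM), and Ptger3 and Ptger4 stand out in Pan02.

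The 3 receptor genes of the set had their highest means in Pan02 tumors. Ptger1, another prostaglandin E2 receptor gene outside the set, was highest in B16 (mean 65.1 CPM against 49.6 CPM in Pan02). Ptger3 (chr3:157566819-157644758, + strand) encodes EP3, which lowers cAMP. It had 6.94, 39.3 and 29.5 CPM in the 3 Pan02 tumors and at most 1.13 CPM in each of the other 12, with 1 to 3 counts in B16 tumors. Every Pan02 tumor was above all others, with a log2 fold change of 5.91 ± 0.35 SE (adjusted p = 1.8e-08). It was lower in B16 (-3.51 ± 0.65, adjusted p = 0.00037), and its lower level in EO771 (-1.85 ± 0.58, adjusted p = 0.016), from 2 to 6 counts, did not pass when EO771 tumor 1 (adjusted p = 0.063) or 2 (0.069) was left out.

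Ptger4 (chr15:5233399-5244187, - strand) encodes EP4, which raises cAMP. It had 50.2, 34.9 and 17.1 CPM in Pan02 tumors, while the 9 tumors of EO771, LL2 and MC38 had 4.28 to 12.1 CPM and those of B16 3.14, 4.41 and 3.89 CPM. Pan02 lay above every other tumor (log2 fold change 2.46 ± 0.28 SE, adjusted p = 5.7e-06), and B16 was lower than the mean of the others (-1.48 ± 0.36, adjusted p = 0.0028). Ptger2 (chr14:44988111-45003820, + strand) encodes EP2, which also raises cAMP. It was low in all tumors, at 0.523 to 3.18 CPM outside Pan02 and 1.91, 4.99 and 9.54 CPM in Pan02. Its rise in Pan02 (1.80 ± 0.42, adjusted p = 0.0024) did not pass without Pan02 tumor 3 (1.12 ± 0.47, adjusted p = 0.058), and without that tumor it did not differ among models at the threshold (adjusted p = 0.16 against 0.015 with it). Of the exon bases of Ptger2, 6.7% overlap the gene models Gm17173 and Gm49364.

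Other cell types moved with Pan02 as well. The 7 mast cell markers, none at 0 in any model, summed to 381 to 735 CPM in Pan02 tumors, 50.2 to 376 CPM in LL2 and 20.4 to 79.3 CPM in the other models. All 7 were higher in Pan02 and 6 of 7 in LL2. The 8 fibroblast markers summed to 32840 to 38550 CPM against at most 9478 CPM. The 8 macrophage markers summed to 1569, 3762 and 6752 CPM in Pan02 tumors 1, 2 and 3. Ptger2 had the same order among these 3 tumors as the macrophage sum and Ptger4 the opposite order, but 3 tumors are too few to tell such orders from chance. The part of these cells in the receptor levels was not tested.

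Hpgd (chr8:56294552-56321046, + strand), whose product inactivates prostaglandin E2, was close to the detection limit in every model. It had 3 to 63 counts a tumor, that is 0.295 to 0.399 CPM in B16, 0.417 to 0.939 CPM in LL2, 1.31 to 1.64 CPM in EO771 and 0.900 to 1.75 CPM in Pan02. MC38 tumors had 0.722, 0.447 and 4.31 CPM, so that 1 tumor was above all others. Hpgd did not pass the test among models (adjusted p = 0.053 by edgeR), but it did when any 1 MC38 tumor was left out (adjusted p = 0.0023 without the high tumor, 0.025 and 0.0093 without the others), under DESeq2 and under total-count scaling. Its lower level in B16 (log2 fold change -1.72 ± 0.64 SE, adjusted p = 0.03), from 3, 6 and 7.5 counts, did not pass without any 1 of the 3 B16 tumors (adjusted p 0.079 to 0.089).

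Counted by model, the 10 genes can be read against all genes tested. In B16 tumors 8 of 10 were called, all 8 lower, with a median log2 change of -1.63 against -0.03 over all genes, where 63.5% of genes were called (31.9% higher and 31.6% lower). In Pan02 tumors 9 of 10 were called, 6 higher and 3 lower, with a median of 1.65 against 0.05, where 60.6% of genes were called (32.5% higher and 28.1% lower). In LL2 tumors 5 of 10 were called, 4 higher and 1 lower, where 42.2% of genes were called (23.3% higher and 18.9% lower). MC38 tumors had 6 of 10, 5 higher and 1 lower, beside 51.4% of genes (27.0% higher and 24.4% lower). EO771 tumors had 6 of 10, 3 each way, beside 54.2% of genes (27.2% higher and 27.0% lower). The shares called in either direction in EO771, LL2 and MC38 were near those of all genes. In LL2 and MC38 a larger share of the 10 was higher, and a smaller share lower, than of all genes. These splits rest on few genes and were not tested. In B16 tumors the 5 leukocyte markers summed to 159 to 290 CPM and the 8 fibroblast markers to 336 to 1208 CPM, below every tumor of the other models (at least 368 CPM and 1908 CPM). Their part in the low levels of B16 was not tested.

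The balance of the cyclooxygenases, as the ratio of Ptgs2 to Ptgs1 per transcript length within 1 library, was lowest in EO771 tumors at 0.0131, 0.00785 and 0.0108. It was highest in MC38 tumors at 6.36, 3.90 and 5.74. The ratio was 0.224 to 0.709 in B16, 0.320 to 0.886 in LL2 and 0.0804 to 0.832 in Pan02. EO771 and MC38 thus lay outside the range of the other 9 tumors on opposite sides, with no test made. On the same scale, Ptgs2 relative to Hpgd was 33.8 to 215 in LL2, 8.40 to 69.7 in MC38, 8.59 to 37.2 in Pan02, 1.92 to 4.68 in B16 and 0.336 to 0.615 in EO771. The few counts of Hpgd make this second ratio imprecise.

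**Figure D2:**
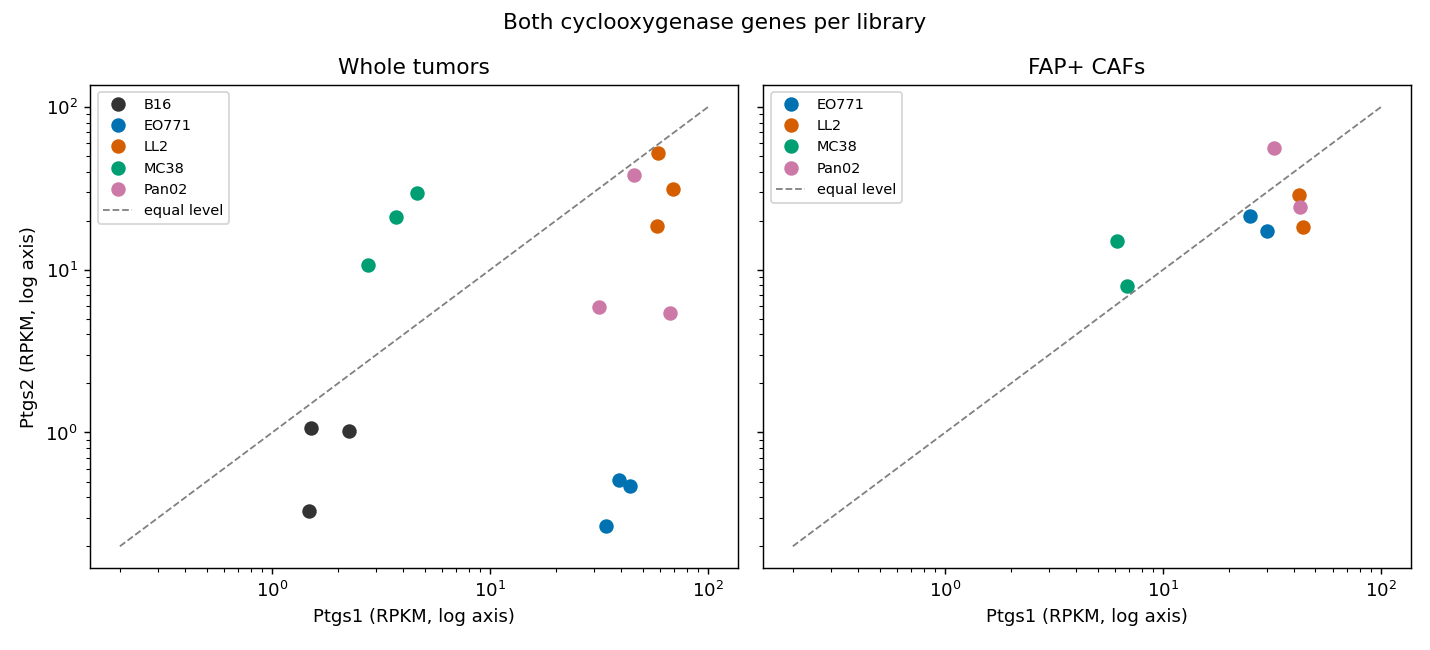
Ptgs2 against Ptgs1 per library in RPKM (both axes log), whole tumors on the left and FAP+ CAFs on the right, with a dashed line at equal levels. In tumors EO771 lies far below the line and MC38 above it, and all 8 CAF libraries lie within ratios of 0.413 to 2.46.

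CAFs of all 4 models had both cyclooxygenases, at 6.13 to 56.0 RPKM. Of the 10 genes, Ptger2 and Hpgd were below 1 RPKM in every CAF library and were not tested. Of the 8 tested, 6 passed the limma test over the 4 models, as did 80.4% of the 13598 genes tested. Ptgs1 was lowest in MC38 CAFs, Ptges in Pan02 CAFs and Pla2g4a in EO771 CAFs. Pan02 CAFs were highest in Pla2g4a and Ptger4. With 2 libraries a model, all 4 models share 1 estimate of the spread.

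Pla2g4a was 17.5 and 19.5 RPKM in Pan02 CAFs, 8.44 and 9.38 RPKM in LL2, 6.99 and 5.41 RPKM in MC38 and 3.40 and 4.15 RPKM in EO771, with no overlap between models. On the log2(RPKM + 1) scale, used for all CAF differences and which understates those of low genes, it was higher in Pan02 (1.48 ± 0.13 SE, adjusted p = 1e-04 by limma) and lower in EO771 (-1.23 ± 0.13, adjusted p = 0.00035). The lower level in MC38 (-0.44 ± 0.13, adjusted p = 0.022) did not pass without MC38 library b (adjusted p = 0.12), the library that stood apart, nor without a library of EO771 (adjusted p = 0.056) or LL2 (adjusted p = 0.053).

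Ptgs1 was 41.8 and 44.0 RPKM in LL2 CAFs, 32.4 and 42.4 RPKM in Pan02, 29.8 and 25.1 RPKM in EO771 and 6.84 and 6.13 RPKM in MC38. MC38 lay far below the other models, and LL2 overlapped Pan02. The difference was -2.27 ± 0.13 SE in MC38 (adjusted p = 2.5e-05 by limma), 1.13 ± 0.13 in LL2 (adjusted p = 0.00087) and 0.86 ± 0.13 in Pan02 (adjusted p = 0.0015). Ptgs2 was 56.0 and 24.1 RPKM in Pan02 CAFs, 28.8 and 18.2 RPKM in LL2, 17.3 and 21.4 RPKM in EO771 and 7.99 and 15.1 RPKM in MC38. Only MC38 did not overlap its neighbor in this order. Its differences among models were weakly supported: adjusted p was 0.042 over the 4 models, and it lay between 0.058 and 0.11 under 8 of the alternatives, 6 of which left out 1 library. The higher level in Pan02 (1.07 ± 0.35, adjusted p = 0.035) fell to 0.48 ± 0.35 without Pan02 library a (adjusted p = 0.31) and rose to 1.66 ± 0.35 without library b (adjusted p = 0.013), and it did not pass under 5 further alternatives. The lower level in MC38 (-1.13 ± 0.35, adjusted p = 0.025) was -0.71 ± 0.41 without MC38 library a (adjusted p = 0.16) and did not pass under 3 further alternatives (adjusted p 0.052 to 0.06).

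Among the synthases, Ptges was 51.5 and 53.1 RPKM in LL2 CAFs, 32.1 and 33.3 RPKM in EO771, 30.1 and 26.0 RPKM in MC38 and 3.06 and 1.66 RPKM in Pan02. No 2 models overlapped, and the LL2 and Pan02 means differed by 22.2-fold. It was lower in Pan02 by -3.51 ± 0.16 SE on the log2 scale (adjusted p = 5.6e-06 by limma) and higher in LL2 (1.85 ± 0.16, adjusted p = 0.00025), EO771 (0.97 ± 0.16, adjusted p = 0.0023) and MC38 (0.68 ± 0.16, adjusted p = 0.0084). Each difference is relative to the other models averaged on the log2 scale. For MC38 that average holds the very low Pan02, so MC38 counts as higher although it lay below LL2 and EO771. Ptges2 was 19.5 and 21.3 RPKM in EO771 and 9.49 to 15.9 RPKM in the other 6 libraries, and was higher in EO771 (0.74 ± 0.12, adjusted p = 0.0023). Its lower levels in LL2 (-0.45 ± 0.12, adjusted p = 0.028) and Pan02 (-0.39 ± 0.12, adjusted p = 0.032) each failed to pass when any of several single libraries was left out, with adjusted p up to 0.23 and 0.16. Ptges3 ranged from 26.3 to 42.6 RPKM and did not pass (adjusted p = 0.47), but without MC38 library b it did (adjusted p = 0.021).

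**Figure D3:**
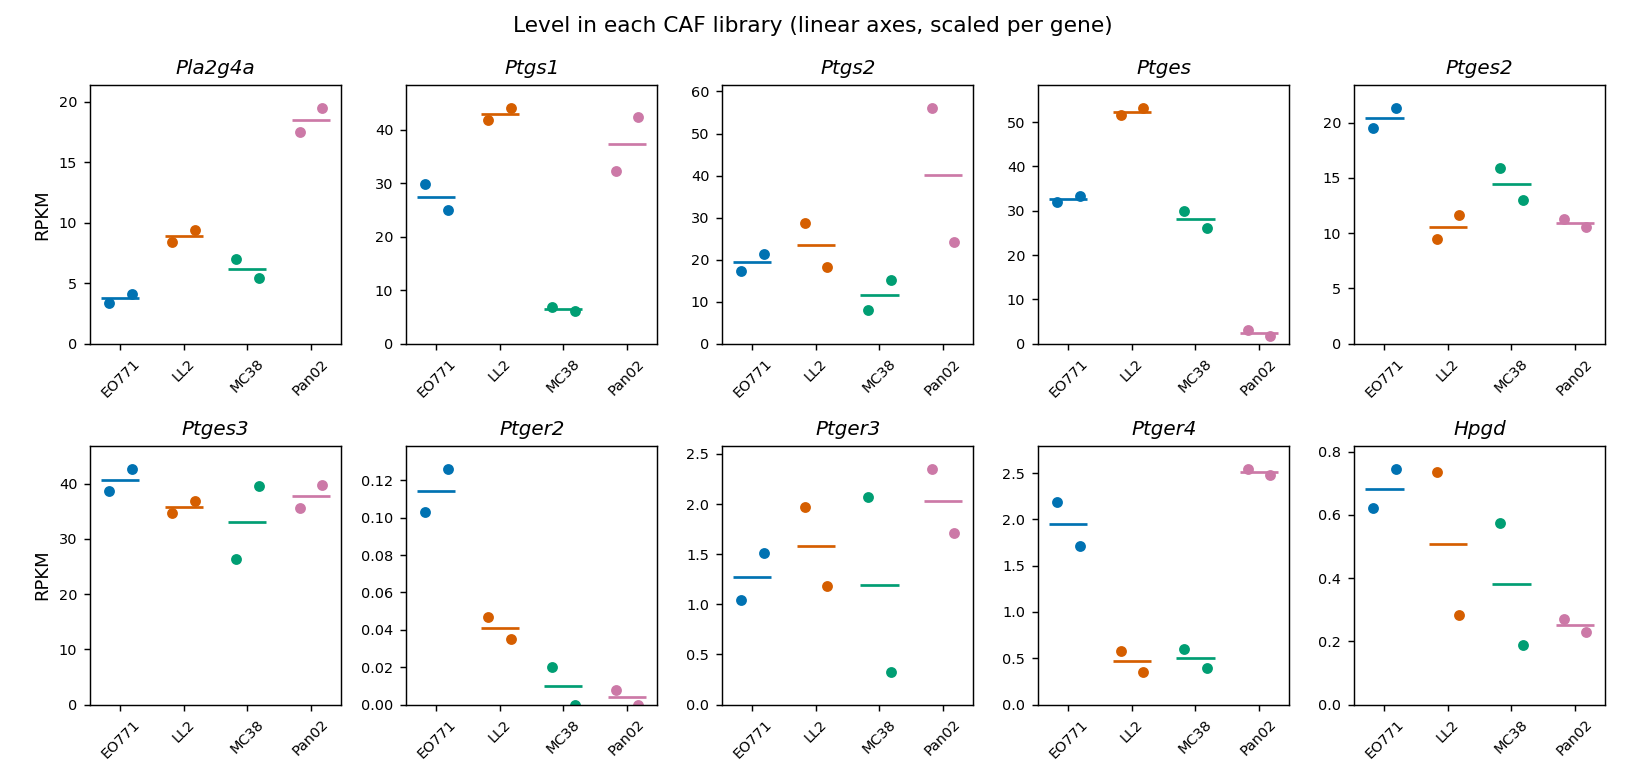
Each panel plots 1 gene in RPKM (linear axis from 0) for the 2 CAF libraries of each model as points, with the model mean as a bar. Ptgs1 is lowest in MC38 (6.13 to 6.84 RPKM), Ptges in Pan02 (1.66 to 3.06 RPKM), and Pla2g4a is highest in Pan02 (17.5 to 19.5 RPKM).

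Levels of the 3 receptor genes of the set were low in CAFs. Ptger1, outside the set, had means of 7.97 RPKM in EO771, 14.3 RPKM in LL2, 16.3 RPKM in MC38 and 20.0 RPKM in Pan02. Ptger4 was 2.54 and 2.48 RPKM in Pan02, 2.18 and 1.72 RPKM in EO771, 0.604 and 0.397 RPKM in MC38 and 0.576 and 0.356 RPKM in LL2, so that Pan02 and EO771 lay above MC38 and LL2. It was higher in Pan02 (0.92 ± 0.13 SE, adjusted p = 0.00091 by limma) and lower in MC38 (-0.72 ± 0.13, adjusted p = 0.0022). Its higher level in EO771 (0.58 ± 0.13, adjusted p = 0.008) did not pass without EO771 library a (adjusted p = 0.12), nor its lower level in LL2 (-0.77 ± 0.13, adjusted p = 0.004) without LL2 library b (adjusted p = 0.066). The 5 leukocyte markers summed to 29.9 to 33.1 RPKM in EO771 and 17.9 to 29.6 RPKM in Pan02, against 1.68 to 3.08 RPKM in LL2 and MC38. Of the 4 that were tested, all were higher in EO771 CAFs, but in Pan02 CAFs only Cd53 was higher and Cd52, Laptm5 and Coro1a were lower. Their part in the Ptger4 levels was not tested. Ptger3 was 2.35 and 1.71 RPKM in Pan02, 1.98 and 1.19 RPKM in LL2, 1.04 and 1.51 RPKM in EO771 and 2.07 and 0.322 RPKM in MC38. It did not pass among models (adjusted p = 0.51), with all models overlapping in turn, but did without MC38 library a (adjusted p = 0.015). Ptger2 had 0 to 9.5 recovered reads a library, and the 2 libraries at 0 allow up to 3 reads each. Hpgd was 0.189 to 0.744 RPKM, from 3 to 28.5 reads.

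By model, EO771 CAFs had 3 of the tested genes higher and 1 lower, beside 52.5% of genes called (24.5% higher and 27.9% lower). LL2 CAFs had 2 higher and 2 lower, beside 33.0% (14.7% higher and 18.3% lower). MC38 CAFs had 1 higher and 4 lower, beside 59.9% (28.6% higher and 31.3% lower). Pan02 CAFs had 4 higher and 2 lower, beside 53.6% (27.1% higher and 26.5% lower). None of these shares is read as particular to the pathway, since 2 genes did not pass the filter.

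**Figure D4:**
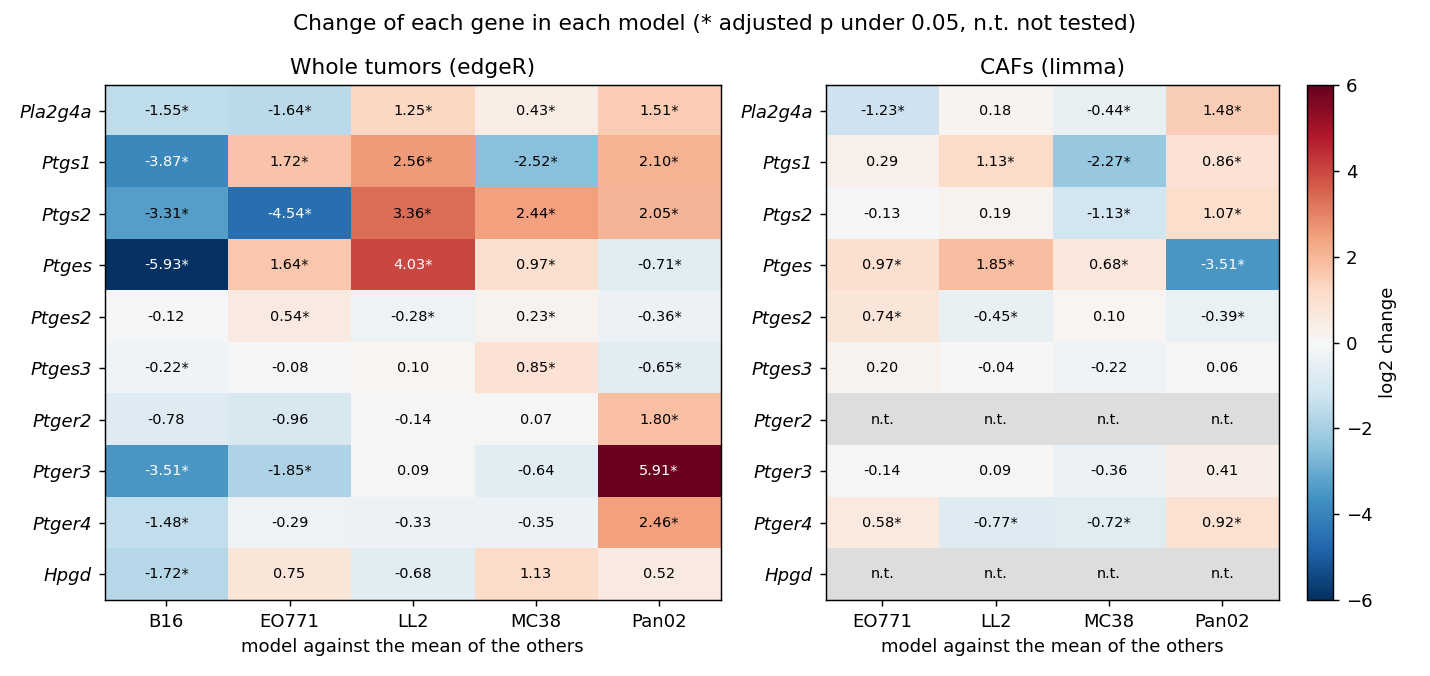
Color and number give the log2 change of each gene in a model relative to the other models' mean, for whole tumors (left, edgeR) and CAFs (right, limma on log2(RPKM + 1)), with a star at an adjusted p under 0.05. The strongest fall within tumors is Ptges in B16 (-5.93) and within CAFs Ptges in Pan02 (-3.51), and the strongest rise is Ptger3 in Pan02 tumors (5.91), beside 0.41, not past the test, in Pan02 CAFs.

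Set side by side per transcript length, tumors and CAFs of a model did not always rank alike. The tables were normalized separately, the CAFs alone went through digestion and sorting, and no test was made across them, so preparation and cell type cannot be told apart. In EO771, Ptgs2 was 0.267 to 0.512 RPKM in whole tumors and 17.3 to 21.4 RPKM in CAFs, while Ptgs1 was 34.0 to 43.7 RPKM and 25.1 to 29.8 RPKM. MC38 tumors had 10.7 to 29.4 RPKM of Ptgs2 and MC38 CAFs 7.99 to 15.1 RPKM, and Ptgs1 was low in both, at 2.75 to 4.62 RPKM in tumors and 6.13 to 6.84 RPKM in CAFs. In Pan02, Ptger3 was 3.19 to 18.1 RPKM in tumors and 1.71 to 2.35 RPKM in CAFs, and Ptges was 9.64 to 11.4 RPKM in tumors and 1.66 to 3.06 RPKM in CAFs. In LL2, Ptges was 114 to 205 RPKM in tumors and 51.5 to 53.1 RPKM in CAFs. With reads on genes as the denominator, as in the tumor values, CAF Ptgs2 in EO771 was 19.8 to 24.3 RPKM.

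Other genes of lipid mediator synthesis and sensing numbered 43, of which 36 were tested in tumors, and 35 of these differed among models, beside 91.1% of all genes. They comprised phospholipases A2, other prostanoid synthases and receptors, transport and breakdown genes, and leukotriene and lipoxygenase genes. In Pan02 tumors 20 of the 36 were higher and 5 lower, beside 32.5% and 28.1% of all genes, with Alox15, an arachidonate lipoxygenase, rising most (log2 fold change 5.24 ± 0.67 SE, adjusted p = 1.8e-05 by edgeR), at 1.12 to 85.7 CPM against at most 2.70 CPM elsewhere, so that 1 Pan02 tumor was within the range of the others. In B16 tumors 10 were higher and 17 lower, beside 31.9% and 31.6% of all genes. Ptgds, which makes prostaglandin D2, rose most there (9.93 ± 0.29, adjusted p = 6.9e-12), at 1043 to 1988 CPM against at most 6.07 CPM, and Ptgfr, the prostaglandin F receptor, fell most (-4.45 ± 0.58, adjusted p = 1.8e-05). Ptgfr was the gene that rose most in LL2 tumors (3.43 ± 0.32, adjusted p = 2e-06), where 11 were higher and 8 lower, beside 23.3% and 18.9% of all genes. Pla2g5, a secreted phospholipase A2, rose most in EO771 (4.29 ± 0.26, adjusted p = 2.7e-08) and MC38 (3.71 ± 0.26, adjusted p = 1.8e-07) and fell most in LL2 (-4.28 ± 0.46, adjusted p = 6.9e-06) and Pan02 (-2.62 ± 0.39, adjusted p = 7.1e-05). EO771 had 4 higher and 12 lower, beside 27.2% and 27.0% of all genes, with the largest fall in the secreted phospholipase Pla2g2e (-3.95 ± 0.84, adjusted p = 0.0014). MC38 had 10 higher and 7 lower, beside 27.0% and 24.4%, with the largest fall in Ptgds (-2.52 ± 0.42, adjusted p = 0.00025). Both falls are relative to a mean that holds B16, where these genes were far higher: Ptgds was also lower in EO771 (-3.94) and LL2 (-2.98), with MC38 at 0.616 to 2.48 CPM and some tumors elsewhere as low as 0.436 CPM, and Pla2g2e was higher in B16 (6.17) and also lower in LL2 (-3.64).

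In CAFs 25 of the 43 were tested and 21 differed among models, beside 80.4% of all genes. Alox5ap, which presents arachidonic acid to 5-lipoxygenase, rose most in MC38 CAFs (3.69 ± 0.19 SE, adjusted p = 1.8e-05 by limma), at 64.0 to 89.3 RPKM against at most 7.91 RPKM elsewhere. Alox5, the gene of 5-lipoxygenase, had a mean of 0.1385 RPKM in MC38 CAFs and was too low to be tested in CAFs. In MC38 CAFs 11 genes were higher and 7 lower (28.6% and 31.3% of all genes), with the largest fall in the prostaglandin transporter Slco2a1 (-1.82 ± 0.24, adjusted p = 0.00058 by limma). Alox5ap fell most in Pan02 CAFs (-2.35 ± 0.19, adjusted p = 6.9e-05), where 6 were higher and 7 lower (27.1% and 26.5% of all genes) and Cbr1, a carbonyl reductase that acts on prostaglandin E2, rose most (1.60 ± 0.12, adjusted p = 3.9e-05). Cbr1 fell most in EO771 CAFs (-1.66 ± 0.12, adjusted p = 6.3e-05), where Pla2g5 rose most (2.26 ± 0.11, adjusted p = 1.7e-05) and 6 were higher and 12 lower (24.5% and 27.9% of all genes). In LL2 CAFs 5 were higher, Pla2g7, the platelet-activating factor acetylhydrolase, most of all (2.14 ± 0.21, adjusted p = 0.00041), and 8 lower, Pla2g5 most of all (-2.41 ± 0.11, adjusted p = 3.5e-05), beside 14.7% and 18.3% of all genes.

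Genes known to induce Ptgs2 and genes that respond to cAMP were counted too. Of 10 inducers 9 were tested in tumors, and in LL2, where the Ptgs2 mean was highest, 5 were higher and none lower, with a median log2 change of 1.07 against 0.01 over all genes (23.3% higher and 18.9% lower). Areg, an EGF receptor ligand, rose most (4.29 ± 0.27 SE, adjusted p = 5.6e-08 by edgeR), at 45.4 to 113 CPM against at most 20.2 CPM elsewhere. EO771 tumors, lowest in Ptgs2, had 3 inducers higher and 1 lower (27.2% and 27.0% of all genes), B16 tumors none higher and 5 lower (31.9% and 31.6%), MC38 tumors 2 and 1 (27.0% and 24.4%) and Pan02 tumors 3 and none (32.5% and 28.1%). Of 10 cAMP response genes, 6 were higher and none lower in Pan02 tumors (median 1.01 against 0.05, beside 32.5% higher and 28.1% lower of all genes), and in LL2 3 were higher and 1 lower (23.3% and 18.9%), with the largest rise in Per1, a clock gene (1.24 ± 0.22, adjusted p = 0.00057). In CAFs, Pan02 had 5 of the 10 higher and none lower (27.1% and 26.5% of all genes). The largest rise was in Nr4a1, an immediate-early nuclear receptor (3.36 ± 0.49, adjusted p = 0.0012 by limma). Its 2 Pan02 libraries were far apart, at 204 and 885 RPKM, against at most 96.1 RPKM elsewhere. In Pan02 tumors it was 310 CPM ± 444 (SD, n = 3). The part of digestion and sorting in these CAF levels was not tested, and the counts do not measure receptor signaling. MC38 CAFs had none higher and 8 lower (28.6% and 31.3%), EO771 CAFs 1 higher and 3 lower and LL2 CAFs none and 1. In B16, EO771 and MC38 tumors the same 10 had 3, 1 and none higher and 4, 3 and 3 lower. Of the 7 inducers tested in CAFs, 6 were higher and 1 lower in EO771 (median 1.63 against -0.02 over all genes, of which 24.5% were higher and 27.9% lower), where Ptgs2 itself was at -0.13 ± 0.35 (adjusted p = 0.78). LL2 CAFs had 1 higher and 3 lower (14.7% and 18.3%), and MC38 CAFs 1 and 5 (28.6% and 31.3%). In Pan02 CAFs 2 were higher and 2 lower (27.1% and 26.5%), and Tgfa, another EGF receptor ligand, rose most (1.85 ± 0.11, adjusted p = 1.6e-05).

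Genes with the most similar pattern were ranked by Pearson's r of log2 values, leaving out genes whose mean was under 10 (CPM in tumors, RPKM in CAFs). Over the 15 tumors those most like Ptgs1 were Sdr39u1 (r = 0.988), Prune2 (0.983), Fam45a (0.978), B3gnt2 (0.976) and Pip5k1c (0.972), and those most like Ptgs2 were Styk1 (0.947), Ptn (0.936), Ifitm1 (0.930), Mgst3 (0.928) and Thbs3 (0.924). Of the other 9 genes of the pathway, Pla2g4a was the one most like Ptgs2 (r = 0.902). Over the 8 CAF libraries those most like Ptgs2 were Dnaja1 (0.974), Kdm6b (0.961), Zfand5 (0.946), Jun (0.930) and Phlda1 (0.929), while Pla2g4a had r = 0.545. The libraries come in groups of 3 or 2 of the same model, so these values mostly describe differences between models.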

How the data were processed

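RNA of 15 whole tumors and 8 FAP+ CAF samples was analysed. The authors aligned reads to mm10 with STAR 2.5.0c and counted them over exons of RefSeq transcripts with HOMER, on both strands. The deposited tumor values are expected counts of each transcript in steps of 0.5, not normalized. The deposited CAF values are RPKM of each transcript, given to 3 decimals. Each table also held columns of samples not used here (5 in both). The transcript with the largest mean stood for a symbol; 2 transcripts name no gene.

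Tumor counts were rounded, filtered by filterByExpr, TMM-scaled and tested by edgeR 4.0.16 (quasi-likelihood), over the 5 models and for each model relative to the other 4 averaged. CAF values were tested by limma 3.58.1 on log2(RPKM + 1), with a trend, for genes of at least 1 RPKM in at least 2 libraries, over the 4 models and for each relative to the other 3 averaged. The other models were averaged on the log2 scale, so a model with a very low level draws that average down. P-values were Benjamini-Hochberg adjusted over all genes tested and called under 0.05. No source says that replicates came from separate mice, so p-values measure the spread between these samples. CAF reads were recovered from RPKM steps: 100% of values checked were multiples of 0.5 reads, within 0.2 of that step. Limits from counts cover counting error only. CAF columns carry no replicate number, and a and b are names only. Each fit was tested on simulated data with 200 changed genes: edgeR recovered 185 for LL2 tumors (15732 genes) and limma 200 for LL2 CAFs (13598 genes). False calls numbered 7 and 10. The simulated spread was set, not estimated from these data, and far fewer genes were changed than differed here. These recoveries therefore do not give the power for the 10 genes. DESeq2 1.42.0 served as an alternative, under R 4.3.3. Tables were handled with pandas 2.3.3 and numpy 2.4.6 in Python 3.11.15, and plots drawn with matplotlib 3.10.9. Promoters came from RefSeq (GRCm38.p6, 10 of 10 genes matched) and exon overlaps from the GENCODE annotation of the same build.

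Named genes were the 10 members; for the other lists, the called gene with the largest rise and fall per model, or, for inducers and cAMP response genes, the largest rise where Ptgs2 was highest; and the 5 genes most like Ptgs1 or Ptgs2. Members, lists and this rule were chosen with earlier results of these data known. Ptger1, Alox5, some cAMP response genes and single cell type markers were named outside this rule. Alternatives covered normalization, tool, filter, pseudocount, transcript, fold threshold, the replicate block and leaving out each library.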

Additional observations from a re-analysis of the deposited data

How the results depend on the processing

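Each call of a gene in a model was recomputed under each alternative. Counted over calls and alternatives, 878 results stayed past the threshold in the same direction, 49 did not pass, and none changed direction. Most alternatives left out 1 library, so these results share nearly all their libraries and are not independent. With a log2 change of at least 1 also required, the genes called were 2 in MC38 tumors (where 19.5% of all genes were), 1 in EO771 CAFs (15.1%), 2 in LL2 CAFs (9.02%), 2 in MC38 CAFs (20.7%) and 3 in Pan02 CAFs (18.1%), since several changes were small. Leaving out 1 CAF library gave 3 to 5 genes called in MC38 CAFs (3 without EO771 library b) and 2 to 4 in LL2 CAFs (2 without LL2 library b). Under total-count scaling the median of all genes in MC38 tumors moved to 0.143, and under DESeq2 that in B16 tumors to -0.107; Hpgd then passed among tumor models (adjusted p = 0.042 and 0.035). On recovered CAF reads, edgeR tested 15457 genes and kept the direction of every CAF call, Ptgs2 included (adjusted p = 0.04 in MC38 and 0.025 in Pan02). The tumor replicate numbers are not stated to pair samples: deviations of same-numbered tumors correlated at -0.165 to 0.263, over 0.1 in 9 of 30 pairs, and the replicate block left 8, 6, 5, 6 and 9 genes called in B16, EO771, LL2, MC38 and Pan02. The planned CAF block was not run because the columns carry no replicate number. Groups of 2 or 3 libraries and few reads of Hpgd, Ptger2 and Ptger3 limit what could be detected.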
